A study of Mus musculus with 18 samples.

Results

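The genes described here encode 10 neuropeptide precursors of the retina and of injured neurons: Gal, Npy, Vip, Crh, Tac1, Adcyap1, Sst, Penk, Nts and Cck. They were chosen by name, with earlier results of these data known, and their probes were found through the RefSeq accession of each probe on the array. Each gene had 1 probe, and the Sst probe was spotted 10 times on each array. All 10 were among the 25356 genes tested, of 32992 genes and unnamed probes on the array. Nts passed the filter on dim probes only through the 3 Cre-negative crushed arrays, so it had to be brighter there than elsewhere.

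The samples were whole mouse retinas taken 3 days after optic nerve crush, an injury to the bundle of ganglion cell axons that leaves the eye. All mice carried floxed alleles of Map3k12, the gene of dual leucine zipper kinase (DLK), an axon injury kinase upstream of JNK, and all received tamoxifen, at 10 to 12 weeks of age in the labels' account. The Cre-positive genotype added a Cre-ERT transgene, a recombinase switched on by tamoxifen, under the CAG promoter, which is active in many tissues, so that recombination was not limited to neurons and, per the labels, a small amount of DLK protein remained. The uncrushed retinas came from uninjured eyes, and the labels do not tie an eye to its mouse. The groups were Cre-negative uncrushed (4 arrays), Cre-negative crushed (3), Cre-positive uncrushed (5) and Cre-positive crushed (5). On each array Cy5-labelled retinal RNA was hybridised with Cy3-labelled universal mouse reference RNA, and a level is the log2 ratio of Cy5 over Cy3 at 1 probe. Levels of different genes are not set against each other, since each probe has its own brightness. Nothing in the labels says whether the retinas of a group came from separate animals, so the p-values measure only the spread between these samples. Another Cre-negative array, whose title and description disagree on crush, entered no comparison, and its lens markers summed to 14500.

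Neuropeptides are cut from larger precursor proteins by convertases, stored in dense-core vesicles and sensed mostly by G protein-coupled receptors. In the retina, neuropeptide Y (Npy), vasoactive intestinal peptide (Vip), substance P (Tac1), somatostatin (Sst), enkephalin (Penk) and cholecystokinin (Cck) are known from subsets of amacrine cells, the inhibitory interneurons that contact ganglion cells. Galanin (Gal) and PACAP (Adcyap1) are known for rising in peripheral neurons after their axons are cut, and PACAP is also known from the ganglion cells that express melanopsin.

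Between 68 and 75.5% of probes had a Cy5 signal well above background on the 17 arrays, and no spot was saturated. Pairs of arrays of the same group correlated at r of 0.982 to 0.996 across probes (29 pairs). The Map3k12 level was 2.02 ± 0.17 (SD, n = 10) on Cre-positive arrays and 2.46 ± 0.15 (SD, n = 7) on Cre-negative arrays, with ranges that overlapped (1.77 to 2.34 against 2.21 to 2.61). By limma its Cre change was -0.43 (SE 0.11, adjusted p = 0.88) without crush and -0.47 (SE 0.12, adjusted p = 0.06) with crush. Neither was called. The probe for the estrogen receptor gene Esr1, part of which is fused to the Cre, read 1.80 to 3.30 on Cre-positive and -0.84 to -0.50 on Cre-negative arrays. All 16 amacrine and all 13 Müller glia markers checked were well above background on at least 1 array. Cre-positive uncrushed replicate 4 stood apart by a summed Cy5 signal of cornea, iris and ciliary body markers of 138000, against 20400 to 31600 on the other arrays. Cre-positive crushed replicate 5 stood apart by a summed signal of lens markers of 17500, against at most 4580 on the other 16 arrays, and by the highest level of microglia markers (mean log2 ratio 0.43).

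RefSeq promoter windows, on build GRCm38.p6, were found for 8 of the 10 genes, and Crh and Penk were not matched. The sequences below are the 250 bases before the start of Adcyap1 and Nts, which were called in the difference of the crush response between the genotypes, and of Gal, whose response was called in both. Shorter stretches of Vip and Sst, which were called in no comparison, are shown because they hold the same letters as Adcyap1. Capitals mark motif matches: TGACGT, the opening 6 letters of the cyclic AMP response element TGACGTCA, in Adcyap1 and Vip; the whole element in Sst; and in Nts the AP-1 motif TGANTCA followed by the JUN-type motif TGACATCA.
Adcyap1 (chr17:93198767-93199016, + strand, the upstream of its starts in the table): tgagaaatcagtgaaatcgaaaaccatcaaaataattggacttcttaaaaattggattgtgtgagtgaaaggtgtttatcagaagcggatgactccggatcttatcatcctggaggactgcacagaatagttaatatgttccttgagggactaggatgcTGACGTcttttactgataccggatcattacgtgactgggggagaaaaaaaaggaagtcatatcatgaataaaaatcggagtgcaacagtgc
Nts (chr10:102490419-102490668, - strand): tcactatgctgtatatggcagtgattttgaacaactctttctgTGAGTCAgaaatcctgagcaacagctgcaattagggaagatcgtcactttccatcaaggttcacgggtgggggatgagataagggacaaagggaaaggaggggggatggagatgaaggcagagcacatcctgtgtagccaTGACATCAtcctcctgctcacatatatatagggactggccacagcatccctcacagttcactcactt
Gal (chr19:3414545-3414794, - strand, no match): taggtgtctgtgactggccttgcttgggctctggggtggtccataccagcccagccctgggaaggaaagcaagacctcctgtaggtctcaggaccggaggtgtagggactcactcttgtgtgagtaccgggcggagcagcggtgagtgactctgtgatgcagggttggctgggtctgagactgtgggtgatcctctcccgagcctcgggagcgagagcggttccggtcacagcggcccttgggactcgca
Vip (chr10:5639128-5639187, + strand): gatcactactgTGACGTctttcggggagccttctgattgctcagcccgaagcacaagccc
Sst (chr16:23890865-23890924, - strand): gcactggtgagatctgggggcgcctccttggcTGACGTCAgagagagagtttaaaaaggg

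The motifs were chosen after the sequences had been seen, and both strands were searched. In Adcyap1 the match began 91 bases before the start shown and 242 bases before its other start, in Vip 79 bases and in Sst 48 bases before the start. In Nts the AP-1 match began at 207 bases and the JUN-type match at 67 bases before the start. Over all 32851 windows of 250 upstream bases, TGACGT was found in 6.47%, TGACGTCA, which contains it, in 1.55%, TGANTCA in 6.75% and TGACATCA in 2.93%. None of these letters was found in the windows of Gal, Tac1, Npy and Cck. The matched letters are therefore held by genes that changed with crush and by genes that were not called, and a match is a description of the window only.

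The design asks how retinal expression changed with crush, and whether that change differed when DLK had been deleted. In Cre-negative retinas Crh, Adcyap1, Gal and Tac1 rose with crush, 4 of the 9 genes other than Nts, and none fell in the limma test, where 5 of these genes had an unadjusted p under 0.05. Of all genes tested, 1.34% were called higher. Nts was also called, but it had passed the filter through the Cre-negative crushed arrays, so its direction was fixed by the filter and it adds no support. In Cre-positive retinas Crh and Gal rose, where 0.667% of all genes were called higher and 0.753% in either direction. The crush change of Adcyap1 was smaller in Cre-positive retinas by the test of the difference itself, in which 0.284% of all genes were called lower, and Nts was called there with the same reservation. The median log2 change of the 9 genes was 0.18 without the Cre and 0.02 with it, against 0.0015 and 0.00029 over all genes. Both crush comparisons enter the difference, so their values are not independent of it. Crushed and uncrushed retinas alternated in array position on every slide, so crush and array position cannot be told apart.

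**Figure D1:**
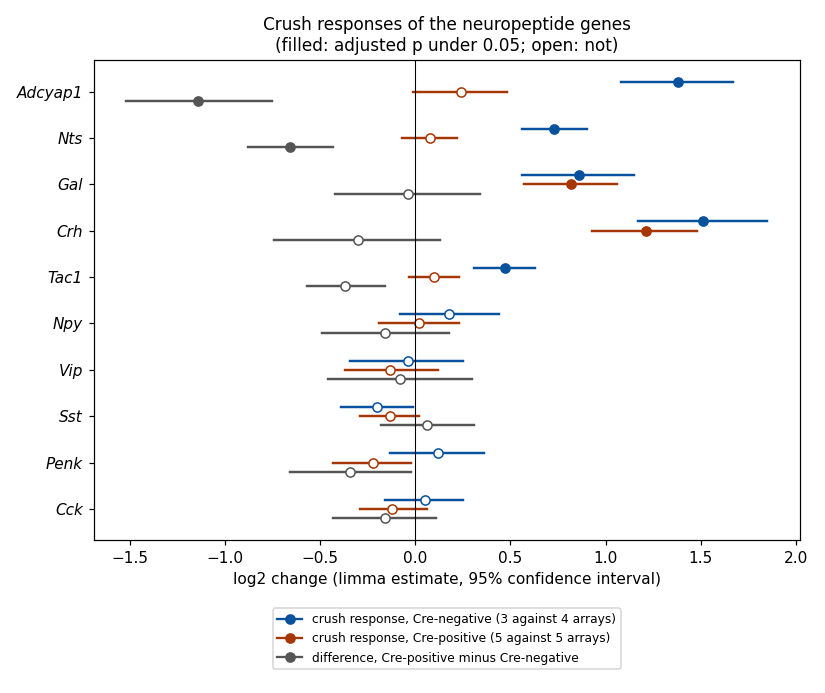
The limma estimate of the log2 change (x axis) with its 95% confidence interval is drawn for each of the 10 genes: blue for the crush change in Cre-negative retinas, brown for that in Cre-positive retinas and grey for the difference between them. The grey interval lies wholly below 0 and is filled, as called, for Adcyap1 (-1.52 to -0.75) and Nts (-0.88 to -0.43), whereas that of Gal spans 0 (-0.42 to 0.34).

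Adcyap1 encodes the precursor of PACAP, a peptide of the secretin family that raises cyclic AMP in its target cells. Its level was 1.43, 1.24, 1.39 and 1.46 on the Cre-negative uncrushed arrays and 2.79, 2.89 and 2.60 on the Cre-negative crushed arrays. Every crushed array lay above every uncrushed one, a separation that 15.4% of all genes showed in this comparison, in either direction. Crush raised the log2 ratio by 1.38 (SE 0.14, adjusted p = 7.8e-06), or 2.60-fold with a 95% interval of 2.11 to 3.19. In Cre-positive retinas the level was 1.69, 1.38, 1.46, 1.08 and 1.38 without crush and 1.63, 1.23, 1.91, 1.55 and 1.85 with crush. Those groups overlapped, and all 5 crushed values lay below the lowest Cre-negative crushed value. Between the crushed groups, 10.3% of all genes did not overlap. The Cre-positive difference was 0.24 (SE 0.12, adjusted p = 0.54), with a 95% interval of -0.01 to 0.48. The crush change was thus smaller by 1.14 in Cre-positive than in Cre-negative retinas, with an interaction of -1.14 (SE 0.18, adjusted p = 0.0038).

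The Cy5 processed signal of Adcyap1 was 529 ± 33.3 (SD, n = 4) and 2000 ± 253 (n = 3) in Cre-negative uncrushed and crushed retinas, and 516 ± 77.9 and 672 ± 104 (n = 5 each) in Cre-positive ones. The Cy3 signal at the same probe, which comes from the same reference on every array, averaged 170 on the Cre-negative crushed arrays and 86.8, 89.5 and 103 in the other groups. With the Cy5 channel alone the Cre-negative rise was 1.96 (adjusted p = 4.2e-07) and the interaction -1.69 (adjusted p = 0.00011). With the scanner software's processed ratios, which carry no offset, they were 0.92 (SE 0.36, adjusted p = 0.38) and -0.85 (SE 0.47, adjusted p = 0.91), so neither call held. The interaction was also not called with an offset of 10 (-1.11, adjusted p = 0.084) or with the array of disagreeing labels among the Cre-negative uncrushed ones (-0.85, adjusted p = 0.58).

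Nts encodes the precursor of neurotensin and neuromedin N, peptides that act through the receptors Ntsr1 and Ntsr2 and the sorting receptor Sort1. Its level was -1.45, -1.27, -1.24 and -1.36 on the Cre-negative uncrushed arrays and -0.60, -0.51 and -0.69 on the crushed ones. On the Cre-positive arrays it was -1.27, -1.42, -1.26, -1.22 and -1.58 without crush and -1.25, -1.29, -1.23, -1.22 and -1.39 with crush. The 3 Cre-negative crushed arrays were the only ones of the 17 on which the Nts probe was well above background in Cy5, with a signal of 87.1 to 102 against 9.19 to 39.5 on the others. For that reason the change has only a bound, at least 1.57-fold higher in Cre-negative crushed than uncrushed retinas. The bound sets the mean log2 Cy5 signal of the crushed arrays, 6.9, against a value of 6.25 for the uncrushed arrays. The measured mean of those uncrushed arrays was 6.23, so the bound lies close to the measured difference on this scale, which carries the offset. The offset makes differences between dim signals smaller. The Cy5 processed signal of Nts averaged 27.4 on the Cre-negative uncrushed and 96.4 on the Cre-negative crushed arrays, a larger fold than the bound. Both sides of the bound are Cy5 values at the same probe, taken after background correction and normalization. The reference channel takes part in that normalization. The fitted rise was 0.73 (SE 0.08, adjusted p = 2e-05). In Cre-positive retinas both groups were not well above background, the difference was 0.08 (SE 0.07, adjusted p = 0.76), and no fold is given. The interaction was -0.66 (SE 0.11, adjusted p = 0.0039). Because the filter kept Nts for its signal on the Cre-negative crushed arrays, these values are a description; with no filter on dim probes, where all 32992 features were tested, the interaction was -0.66 (adjusted p = 0.0044). It was not called with an offset of 10 (-1.04, adjusted p = 0.11), with the Cy5 channel alone (-1.86, adjusted p = 0.57) or with processed ratios (-2.03, adjusted p = 0.39).

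Gal encodes the precursor of galanin, which acts through Galr1, Galr2 and Galr3. Its level was 0.28, 0.21, 0.25 and 0.19 on the Cre-negative uncrushed arrays and 1.27, 0.93 and 1.06 on the crushed ones. On the Cre-positive arrays it was 0.10, 0.19, 0.19, 0.23 and 0.24 without crush and 0.85, 0.72, 0.86, 1.04 and 1.57 with crush. In both genotypes every crushed array lay above every uncrushed one. Of all genes, 15.4% had groups that did not overlap, in either direction, in Cre-negative retinas and 2.07% in Cre-positive ones. Gal rose by 0.86 (SE 0.14, adjusted p = 0.0014) in Cre-negative retinas, or 1.81-fold, and by 0.82 (SE 0.12, adjusted p = 0.0013), or 1.76-fold, in Cre-positive ones. The difference between these responses was -0.04 (SE 0.18, adjusted p = 0.97), with a 95% interval of -0.42 to 0.34. That interval does not show the responses to be alike: it allows a Cre-positive rise up to 0.42 smaller or 0.34 larger. The highest Gal value, 1.57, came from Cre-positive crushed replicate 5, the array with lens signal. Without that array and Cre-positive uncrushed replicate 4, the Cre-positive rise was 0.69 (adjusted p = 2e-04).

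Crh encodes corticotropin-releasing hormone, the hypothalamic starter of the stress hormone axis, which signals through Crhr1 and Crhr2. Its level was 2.02, 1.82, 1.47 and 1.97 on the Cre-negative uncrushed arrays and 3.48, 3.28 and 3.23 on the crushed ones. On the Cre-positive arrays it was 1.74, 1.95, 1.63, 1.67 and 2.08 without crush and 2.84, 2.80, 2.91, 3.04 and 3.52 with crush. Crushed and uncrushed values did not overlap in either genotype. Crh rose by 1.51 (SE 0.16, adjusted p = 1e-05) in Cre-negative retinas, or 2.85-fold, and by 1.21 (SE 0.13, adjusted p = 0.00014), or 2.31-fold, in Cre-positive ones. The interaction of -0.30 (SE 0.21, adjusted p = 0.73) was not called, and its 95% interval ran from -0.74 to 0.13. The Cy3 reference was well above background at the Crh probe on none of the 17 arrays, so the ratio rests on the Cy5 signal and on the offset. With Cy5 alone the Cre-negative rise was 4.29-fold (2.10 on the log2 scale, adjusted p = 3.1e-06). The highest Cre-positive value, 3.52, again came from replicate 5, and without both arrays that stood apart the rise was 1.05 (adjusted p = 0.00021).

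**Figure D2:**
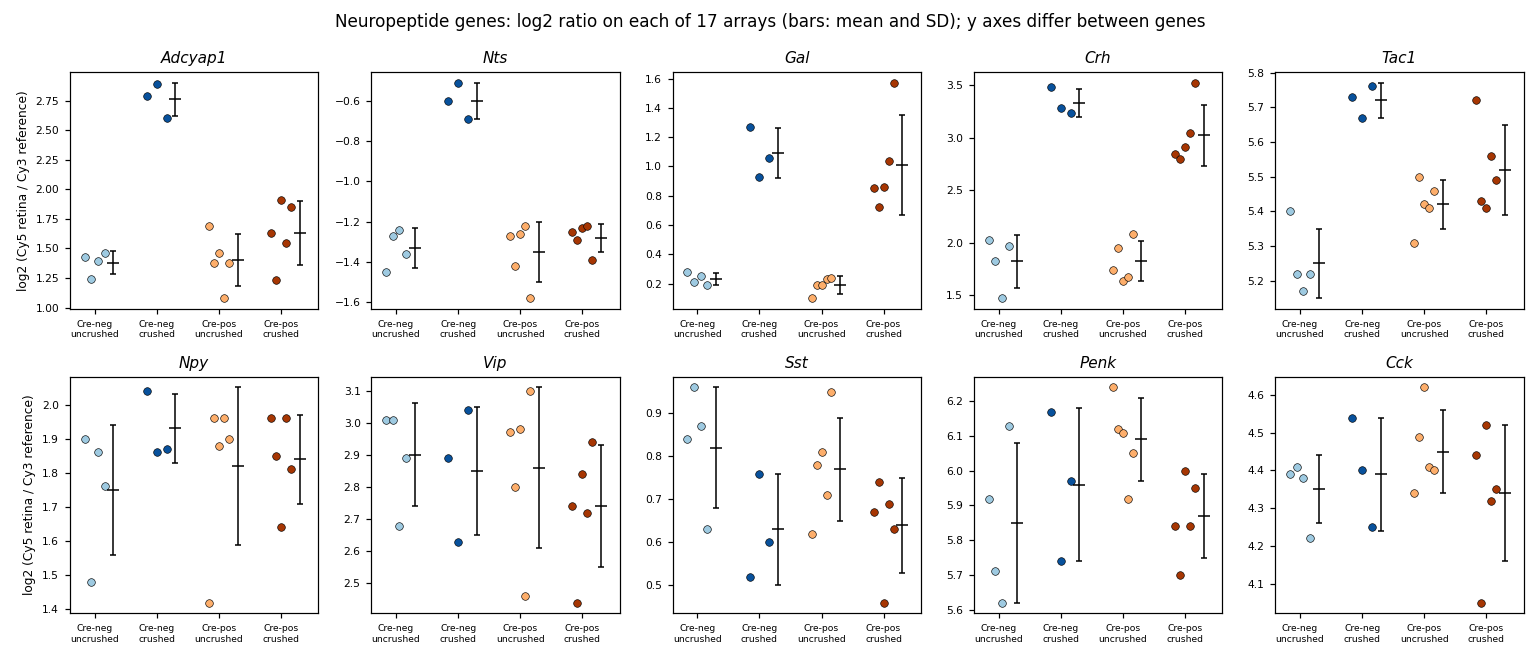
Each point is the log2 ratio of Cy5 retina over Cy3 reference (y axis, scaled for each gene) on 1 of the 17 arrays, by group (x axis), with the group mean and SD as bars beside the points. Adcyap1 and Nts are high on the 3 Cre-negative crushed arrays alone, Gal and Crh are high on the crushed arrays of both genotypes, and the lower row of genes overlaps between groups.

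Tac1 encodes the precursor of substance P and neurokinin A, which act through the tachykinin receptors Tacr1, Tacr2 and Tacr3. Its level was 5.40, 5.22, 5.17 and 5.22 on the Cre-negative uncrushed arrays and 5.73, 5.67 and 5.76 on the crushed ones. On the Cre-positive arrays it was 5.31, 5.50, 5.42, 5.41 and 5.46 without crush and 5.72, 5.43, 5.41, 5.56 and 5.49 with crush. The Cre-negative groups did not overlap, as for 15.4% of all genes, whereas the Cre-positive groups did. Tac1 rose by 0.47 (SE 0.07, adjusted p = 0.0012), or 1.38-fold, in Cre-negative retinas, and its Cre-positive difference was 0.10 (SE 0.06, adjusted p = 0.64). The interaction of -0.37 (SE 0.10) had an unadjusted p of 0.0014 and an adjusted p of 0.17, so the responses were not shown to differ. It was called, at -0.42 with an adjusted p of 0.047, when Cre-positive crushed replicate 1, the highest of its group, was left out. With processed ratios the Cre-negative rise was 0.69 (adjusted p = 0.059) and was not called.

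The other 5 genes, Npy, Vip, Sst, Penk and Cck, were called in no comparison, and their crushed and uncrushed groups overlapped in both genotypes. Penk, the precursor of the enkephalins, which act on opioid receptors, was at 5.92, 5.71, 5.62 and 6.13 in Cre-negative uncrushed and 6.17, 5.74 and 5.97 in crushed retinas. In Cre-positive retinas it was at 6.24, 6.12, 6.11, 5.92 and 6.05 without crush and 5.84, 5.70, 6.0, 5.84 and 5.95 with crush. Its differences with crush were 0.12 (SE 0.12, adjusted p = 0.74) and -0.22 (SE 0.10, adjusted p = 0.47). Sst encodes somatostatin, an inhibitory peptide. Its level ranged from 0.63 to 0.96 on the uncrushed and from 0.52 to 0.76 on the crushed arrays of Cre-negative mice. On those of Cre-positive mice it ranged from 0.62 to 0.95 and from 0.46 to 0.74. The Sst difference with crush was -0.20 (SE 0.09, adjusted p = 0.35) without the Cre and -0.13 (SE 0.07, adjusted p = 0.60) with it, with 95% intervals of -0.39 to -0.01 and -0.29 to 0.02.

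Npy, the precursor of an inhibitory peptide of the pancreatic polypeptide family, averaged 1.75 ± 0.19 (SD, n = 4), 1.93 ± 0.10 (n = 3), 1.82 ± 0.23 (n = 5) and 1.84 ± 0.13 (n = 5) in Cre-negative uncrushed, Cre-negative crushed, Cre-positive uncrushed and Cre-positive crushed retinas. In the same order Vip, whose peptide shares its receptors Vipr1 and Vipr2 with PACAP, averaged 2.90 ± 0.16, 2.85 ± 0.20, 2.86 ± 0.25 and 2.74 ± 0.19. Cck, the precursor of cholecystokinin, averaged 4.35 ± 0.09, 4.39 ± 0.15, 4.45 ± 0.11 and 4.34 ± 0.18. For these 3 genes no pair of neighbouring group means differed by more than the larger SD of the pair. The 95% intervals of the Cre-negative crush difference were -0.08 to 0.44 for Npy, -0.34 to 0.25 for Vip and -0.16 to 0.25 for Cck. In this fit a change of 0.47, that of Tac1, lay outside each of them. Over the alternatives the Npy difference reached 0.56, so for Npy this depends on the processing. The Cy3 signal was well above background on 12 of the 17 arrays for Npy and on 2 for Vip, and the offset pulls such ratios toward 0.

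Ordered by group mean, the Adcyap1 and Nts levels of the Cre-negative crushed group stood above the other 3 groups, which did not differ from each other beyond their SDs. For Adcyap1 those were 1.63 ± 0.27 in Cre-positive crushed, 1.40 ± 0.22 in Cre-positive uncrushed and 1.38 ± 0.10 in Cre-negative uncrushed retinas. Gal and Crh stood in the order Cre-negative crushed (1.09 ± 0.17 and 3.33 ± 0.13) and Cre-positive crushed (1.01 ± 0.34 and 3.02 ± 0.29), followed by both uncrushed groups, which lay close together (0.23 ± 0.04 and 0.19 ± 0.06 for Gal, 1.82 ± 0.25 and 1.82 ± 0.19 for Crh). Tac1 was highest in Cre-negative crushed retinas (5.72 ± 0.05) and lowest in Cre-negative uncrushed ones (5.25 ± 0.10), with both Cre-positive groups between them (5.42 ± 0.07 and 5.52 ± 0.13).

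**Figure D3:**
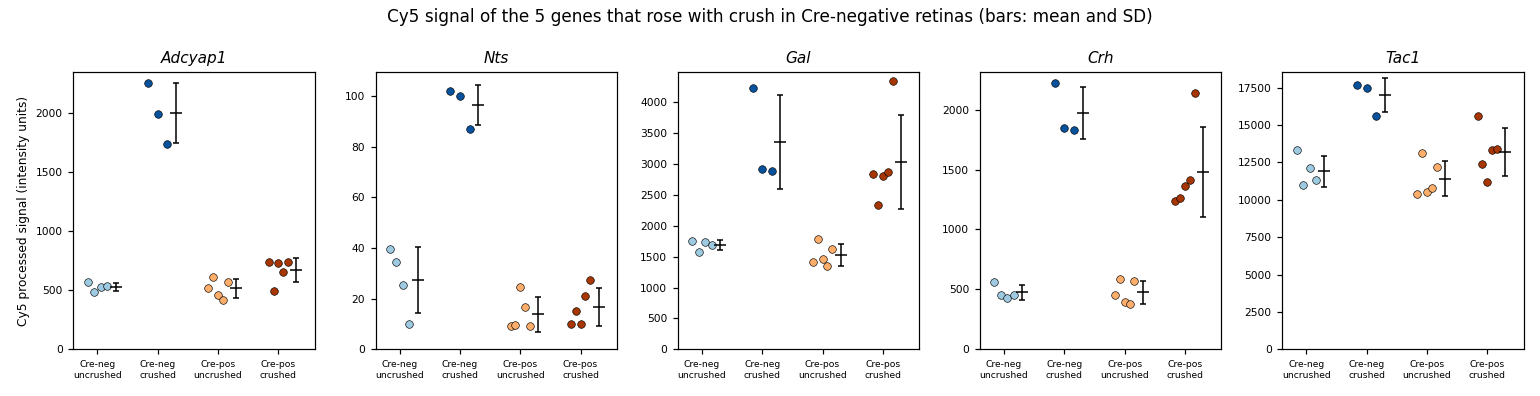
The Cy5 processed signal, in scanner intensity units (y axis, from 0), is drawn for each of the 17 arrays by group for the 5 genes that rose with crush in Cre-negative retinas, with the mean and SD. The Adcyap1 signal lies between 1740 and 2250 on the Cre-negative crushed arrays and between 497 and 739 on the Cre-positive crushed arrays, while the Crh signal lies between 1830 and 2220 on the former and 1240 and 2140 on the latter.

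Without crush, none of the 10 genes differed between the genotypes in the limma test, where 0.0118% of all genes were called, and 2 had an unadjusted p under 0.05. These were Tac1, 0.17 higher in Cre-positive retinas (SE 0.07, adjusted p = 0.88), and Penk, 0.24 higher (SE 0.10, adjusted p = 0.88). In crushed retinas Adcyap1, 1 of the 9 genes other than Nts, was lower in Cre-positive than in Cre-negative mice. Of all genes, 0.556% were called lower there, and no gene of the 10 was higher. Nts was also called lower, but it had passed the filter through the Cre-negative crushed arrays. Its direction was therefore fixed by the filter, it adds no support, and its values below are a description. In this comparison 10.3% of all genes had groups that did not overlap. Adcyap1 was lower by 1.12 (log2 change -1.12, SE 0.13, adjusted p = 6.9e-05), or 2.18-fold. Nts had a log2 change of -0.68 (SE 0.08, adjusted p = 4.5e-05) and was at least 1.57-fold lower in Cy5 signal. For that bound, on the scale that carries the offset, the value used for the Cre-positive crushed arrays and their measured mean were both 6.25. The changes of Crh (-0.31, SE 0.15, adjusted p = 0.38), Tac1 (-0.20, SE 0.07, adjusted p = 0.22) and Gal (-0.08, SE 0.13, adjusted p = 0.84) were not called. This comparison and the Cre-negative crush response share the 3 Cre-negative crushed arrays.

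The arrays were printed on 5 slides, and slides 2 and 3 held an array of each group. Within slides 2, 3 and 5, Adcyap1 was 1.36, 1.32 and 1.5 higher in the crushed Cre-negative retina. Within slides 1 to 4, the Cre-positive difference of Adcyap1 was 0.46, 0.16, 0.26 and -0.15. The direction of the interaction was therefore the same on slides 2 and 3, at -1.19 and -1.07, and for Nts it was -0.70 and -0.58. The Tac1 interaction was -0.36 and -0.30. For Gal and Crh the sign differed between slides, at 0.62 and -0.43 for Gal and 0.36 and -0.62 for Crh, and slide 2 held Cre-positive crushed replicate 5.

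**Figure D4:**
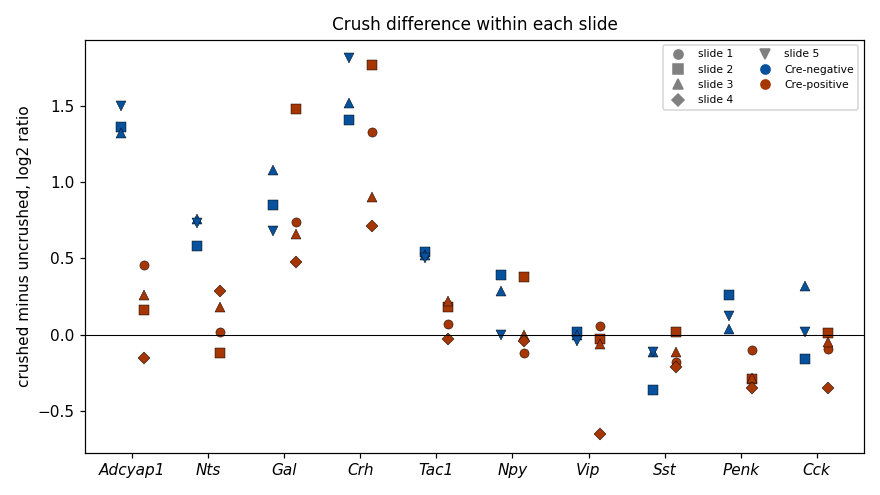
Each marker is the crushed minus uncrushed difference in log2 ratio (y axis) between retinas of 1 genotype on the same slide, for each gene (x axis), with the slide as marker shape and blue for Cre-negative, brown for Cre-positive. For Adcyap1 the Cre-negative differences lie at 1.32 to 1.5 and the Cre-positive ones at -0.15 to 0.46, and for Crh the 2 genotypes overlap.

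Of 28 receptors of these peptides 21 passed the filter, and 1 was called in any comparison, in the Cre-negative crush response, where 2.15% of all genes were called in either direction. A share of 1 in 21 is not set apart from that background. Sstr3, a somatostatin receptor found on neuronal cilia, rose by 0.37 (SE 0.08, adjusted p = 0.021) with crush in Cre-negative retinas, where its group means were 1.69 ± 0.10 (n = 4) and 2.06 ± 0.06 (n = 3). The receptors of the peptides that rose were not called. In Cre-negative retinas the differences with crush were -0.18 (adjusted p = 0.44) for the PACAP receptor Adcyap1r1, -0.27 (adjusted p = 0.18) for Crhr1, 0.13 (adjusted p = 0.70) for Crhr2, 0.06 (adjusted p = 0.85) for Galr2 and 0.08 (adjusted p = 0.80) for Galr3. They were 0.10 (adjusted p = 0.69) for Vipr1 and -0.08 (adjusted p = 0.82) for Vipr2. The tachykinin receptors Tacr1, Tacr2 and Tacr3 were at -0.05, -0.09 and -0.04 (adjusted p of 0.87, 0.63 and 0.94), Ntsr1 at -0.09 (adjusted p = 0.64) and Sort1 at -0.27 (adjusted p = 0.31). Galr1 and Ntsr2 did not pass the filter. In Cre-positive retinas the corresponding differences lay between -0.12 for Adcyap1r1 and 0.18 for Vipr1. The Sstr3 call was lost when Cre-negative crushed replicate 1 or 3 or Cre-negative uncrushed replicate 4 was left out, with an adjusted p of up to 0.11. It was also lost in 5 other alternatives: processed ratios (0.72, adjusted p = 0.4), no background subtraction, an offset of 10, the Cy5 channel alone, and the array of disagreeing labels among the uncrushed.

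Few members of the machinery that makes and stores peptides were called. Of 15 processing and dense-core vesicle genes, Vgf alone was called with crush, in Cre-negative retinas, with each gene at its brightest probe. In that comparison 1.34% of all genes were called higher. Vgf, which encodes a secreted granin that is itself cut into peptides, rose by 0.46 (SE 0.08, adjusted p = 0.003), from 3.59 ± 0.04 (n = 4) to 4.06 ± 0.08 (n = 3), and was not called with processed ratios (0.38, adjusted p = 0.18). Pcsk2, which encodes prohormone convertase 2, was at -0.19 (adjusted p = 0.16) in the same comparison by its brighter probe, but its other probe fell (-0.39, adjusted p = 0.026), and the mean of both was called (-0.29, adjusted p = 0.0073). In crushed retinas Vgf was lower in Cre-positive mice, with a log2 change of -0.35 (SE 0.08, adjusted p = 0.032), and Pcsk2 was 0.30 higher (SE 0.06, adjusted p = 0.017), where 1.18% of all genes were called. That Vgf call was lost when any of the 3 Cre-negative crushed arrays or Cre-positive crushed replicates 1, 2, 4 or 5 was left out, and the Pcsk2 call when Cre-negative crushed replicate 1 or 2 was. In all, the Vgf call was lost in 15 and the Pcsk2 call in 7 of 34 alternatives, among them slide as a fixed block (adjusted p of 0.15 and 0.17), processed ratios (0.17 and 0.31) and a fit of the compared groups alone (0.14 and 0.059). The brighter of its 2 probes gave that Pcsk2 value, and the other gave 0.31 with an adjusted p of 0.087. None of 10 peptide-degrading and binding genes was called in any comparison by limma, with at most 2 at an unadjusted p under 0.05 in a comparison, and Crhbp, which binds CRH and urocortin, was at -0.02 (adjusted p = 0.98).

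Among 30 other neuropeptide genes, 26 of which passed the filter, Ucn and Calca were called with crush in Cre-negative retinas. Calca alone was called in Cre-positive ones. Of all genes, 1.34% and 0.667% were called higher in these 2 comparisons. Ucn encodes urocortin, a relative of CRH that acts on the same receptors. It rose by 1.00 (SE 0.10, adjusted p = 5.4e-06), from 0.39 ± 0.08 (n = 4) to 1.39 ± 0.15 (n = 3), and stood at 0.20 ± 0.16 and 0.40 ± 0.14 (n = 5 each) in Cre-positive uncrushed and crushed retinas. Its interaction of -0.80 (SE 0.13, adjusted p = 0.0037) was called, where 0.418% of all genes were called in either direction, and in crushed retinas its Cre change was -0.99 (SE 0.09, adjusted p = 5.1e-06). The Ucn interaction was not called with processed ratios (-1.60, adjusted p = 0.14) or with an offset of 10 (-1.0, adjusted p = 0.15).

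Calca, the gene of calcitonin and of the peptide CGRP, rose by 0.87 (SE 0.13, adjusted p = 0.00068) in Cre-negative and by 0.49 (SE 0.11, adjusted p = 0.046) in Cre-positive retinas. The group means ran from 1.14 ± 0.14 (n = 4) to 2.01 ± 0.28 (n = 3) and from 1.15 ± 0.14 to 1.64 ± 0.21 (n = 5 each). The other Calca probe gave 0.73 and 0.33. The Cre-negative rise was not called with processed ratios (0.89, adjusted p = 0.54) or with the array of disagreeing labels among the uncrushed (0.69, adjusted p = 0.13). The Cre-positive call of Calca was close to the threshold: it held in 13 of 34 alternatives and was lost on leaving out any of 13 arrays, all but Cre-positive uncrushed replicate 5, Cre-positive crushed replicate 3 and Cre-negative crushed replicates 1 and 3. The interaction of Calca was -0.38 (SE 0.17, adjusted p = 0.57). In crushed retinas its Cre change by limma was -0.37 (adjusted p = 0.19) at the brighter probe and was not called. The other probe gave -0.51 (adjusted p = 0.0014 over all probes), and the mean of both was called (-0.44, adjusted p = 0.0081).

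Markers of the cell types that express these peptides were measured on the same arrays. Of 16 amacrine markers, with the peptide genes left out, Calb2 alone was called with crush in Cre-negative retinas, at -0.83 (SE 0.14, adjusted p = 0.0025), and Calb2 also marks ganglion cells. The summed Cy5 signal of the amacrine markers was 305000 to 339000 in Cre-negative uncrushed and 298000 to 366000 in Cre-negative crushed retinas, and it overlapped likewise between the Cre-positive groups (281000 to 355000 and 333000 to 353000). Of 19 ganglion cell markers tested, 11 fell in Cre-negative retinas (median log2 change -0.60) and 3 in Cre-positive retinas (median -0.17), where 0.808% and 0.0868% of all genes were called lower. Their summed signal went from 249000 to 288000 down to 142000 to 170000 in Cre-negative retinas, and from 264000 to 305000 down to 218000 to 256000 in Cre-positive ones. In whole retina, fewer ganglion cells and less RNA per ganglion cell cannot be told apart. The Cre-negative crushed group was thus at once the lowest in ganglion cell markers and the highest in Adcyap1 and Tac1, and the part of either in the other was not tested.

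Microglia and macrophage markers rose in 4 of 13 (median 0.40) with crush in Cre-negative and in 10 of 13 (median 0.57) in Cre-positive retinas, where 1.34% and 0.667% of all genes were called higher. Their summed signals were 45400 to 49500 and 51500 to 59000 in the Cre-negative groups and 40400 to 55200 and 59200 to 77400 in the Cre-positive groups. Among 13 Müller glia markers, Gfap and Vim rose in both genotypes, by 0.77 and 0.53 in Cre-negative and by 0.81 and 0.68 in Cre-positive retinas, alongside Gal and Crh. Glul, the glutamine synthetase of Müller glia, fell by 0.50 in Cre-positive retinas (log2 change -0.50, adjusted p = 0.048). The part of these glial and immune changes in the rise of Gal and Crh was not tested.

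The genes whose log2 ratios most resembled each called neuropeptide over the 17 arrays are given as a description. For Gal they were Pros1, Nupr1 and Osmr (Pearson r of 0.970, 0.967 and 0.961), which were 0.72, 1.21 and 1.22 higher with crush in Cre-negative and 0.58, 0.92 and 0.83 higher in Cre-positive retinas. For Crh they were Pros1, Gal and Klhl29 (r of 0.962, 0.959 and 0.952). Gal was thus among the nearest genes to Crh. For Adcyap1 they were Srxn1, Gm13889 and Asns (r of 0.953, 0.945 and 0.944), with crush differences of 1.24, 2.04 and 0.95 in Cre-negative and 0.14, 0.28 and 0.18 in Cre-positive retinas. For Nts they were Phgdh, Crabp2 and Gm13889 (r of 0.953, 0.939 and 0.934), so that Gm13889 was among the nearest for both. For Tac1 they were Mthfd2, Cox6a2 and Calca, at lower r of 0.884, 0.839 and 0.832. These correlations run over arrays of 4 groups so that differences between the groups enter them.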

How the data were processed

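Retinal RNA (Cy5) and universal mouse reference RNA (Cy3) were hybridised to 2-colour Agilent arrays, per the labels. Each of the 18 deposited scanner files holds median spot and local background intensity values, with no normalization. The files also hold processed signals, intensity values that Agilent Feature Extraction 10.7.3.1 had background-corrected and dye-normalized, and their deposited log10 ratio. The authors' values were taken as log2 of Cy5 over Cy3, because they correlated at r of 0.999 to 1 with the ratios computed here (slopes of 1 to 1.021, column medians of 0.015 to 0.024, and r of 0.95 to 1 after probe means were removed). The submitters' processing notes name limma, and the normalization is not given in the sources used here.

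In R 4.3.3 with limma 3.58.1 (files read with the data.table package, version 1.17.8), intensities were corrected by normexp with an offset of 50, which pulls ratios of dim spots toward 0, and normalized by loess within each array. Spots of a probe were averaged, and each gene was represented by its brightest probe. Of 39429 probes 26581 were paired with 1 of 20144 symbols through RefSeq accessions. Genes with Cy5 well above background on at least 3 of the 17 arrays were kept (25356, with 48 missing values). A mean for each of 4 groups was fitted (13 residual and 4.49 prior degrees of freedom), with 5 contrasts, two-sided, and Benjamini-Hochberg adjustment over all genes in a contrast. A gene was called at an adjusted p under 0.05. The fit was tested on simulated data.

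The 10 genes, the lists (receptors, processing, degradation, other neuropeptides, cell type markers) and the tests were chosen with earlier results of these data known. All 10 genes are named, with the called members of each list up to 4 per contrast, the receptors of called peptides, and the 3 genes most correlated with each called peptide. Alternatives covered background correction, offset, scaling, channel, filter, probe choice, slide as a block, array weights, prior, the array with disagreeing labels, and each array left out. Leaving out both arrays that stood apart was added after seeing the data. The number of arrays limits the precision.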

Additional observations from a re-analysis of the deposited data

Results flagged for a closer look

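The crush response differed between the genotypes for Adcyap1, with an interaction of -1.14 in limma (SE 0.18, adjusted p = 0.0038). All 5 Cre-positive crushed arrays lay below all 3 Cre-negative crushed arrays, in a comparison where 10.3% of all genes had groups that did not overlap. The Nts interaction was -0.66 (SE 0.11, adjusted p = 0.0039; 0.0044 with no filter on dim probes), but the filter had kept Nts for its signal on the Cre-negative crushed arrays, so that value is a description.

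Npy was at 1.42 on Cre-positive uncrushed replicate 1, and at 1.88 to 1.96 on the other 4 arrays of that group. That gap, as a share of the range of the group, was 0.84, beyond the 95% critical value of Dixon's test. It was the only such array among 30 groups of 4 or 5 arrays examined, and chance alone gives about 1 in 20.

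On the Cre-negative array whose title says uncrushed and whose description says crushed, 6 of the 10 genes lay above the highest value of the 9 uncrushed arrays. Gal was at 1.56 (highest uncrushed value 0.28), Npy at 2.07 (1.96), Crh at 3.46 (2.08), Tac1 at 5.70 (5.50), Adcyap1 at 2.80 (1.69) and Nts at -0.49 (-1.22). These values did not decide its group.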

How the results depend on the processing

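Each result was recomputed under 35 alternatives (34 for the interaction): 17 that left out 1 array and 18 others. Leaving out 1 array gave 5 called genes of the 10 in every case for the Cre-negative crush response, 2 for the Cre-positive one, 2 to 3 for the interaction, 0 for the Cre effect without crush and 2 for that in crushed retinas. These counts include Nts, which the filter had kept for its signal on the Cre-negative crushed arrays. With no array left out, the called genes among the other 9 were 4, 2, 1, 0 and 1 in the same order. Of all genes, 2.15, 0.753, 0.418, 0.0118 and 1.18% were called in either direction. With processed ratios the counts of the 10 genes were 3 for the Cre-negative response, 0 for the interaction and 1 for the Cre effect in crushed retinas. An offset of 10 gave 0 for the interaction and the Cy5 channel alone gave 1. When the disputed array (its labels disagree) joined the Cre-negative uncrushed group, the counts were 0 for the Cre-negative response, 0 for the Cre-positive response, 0 for the interaction and 0 for the Cre effect in crushed retinas. The cause of these changes was not tested. Over single genes, 50 results gave 1740 values, of which 20 lost the call and 2 gained it; no called value changed sign, and 59 uncalled values did. With that array in the Cre-negative uncrushed group the Cre-negative change was 1.09 (adjusted p = 0.079) for Adcyap1 and 1.18 (adjusted p = 0.1) for Crh.

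Over all genes the calls were 545, 191, 106, 3 and 299 for the Cre-negative response, the Cre-positive response, the interaction, and the Cre effect without and with crush. Array weights gave 1252, 167 and 578 for the Cre-negative response, the interaction and the Cre effect in crushed retinas. Processed ratios gave 287, 93 and 68 for both responses and the interaction. The disputed array among the uncrushed gave 73, 10 and 0 for these and 115 for Cre in crushed retinas. Placed among the Cre-negative crushed arrays instead, it gave 745, 189 and 121, and 433 for Cre in crushed retinas. Fitting only the groups compared gave 52 in the Cre-positive response, leaving out both arrays that stood apart 120, and slide as a fixed block 145 for Cre in crushed retinas. Leaving out 1 array gave as few as 330, 110 and 167 for the Cre-negative response, the Cre-positive response and Cre in crushed retinas, and the 3 genes called for Cre without crush were 1 in several alternatives. Processed ratios moved the share of higher calls from 52.8% to 15.9% for Cre in crushed retinas, from 62.4% to 77% in the Cre-negative response and from 32.1% to 19.1% in the interaction, which the Cy5 channel alone moved to 43%. The consensus correlation within slides was 0.065. Changes of Nts, Crh and Vip, whose weaker channel is near background, are limited by signal. No paired analysis was possible because the labels carry no replicate numbers.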

Other observations

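On the array with disagreeing labels, the Penk level was 3.86, whereas the 17 arrays of the 4 groups lay between 5.62 and 6.24. The Cy5 processed signal of Penk there was 5170, against 26200 on the lowest of the 17 arrays, and the Cy3 signal was 166, against 303 to 549. The authors' value table holds 3.87 for that array. The Vip level on the same array was 3.09, that of Sst 0.77 and that of Cck 4.12, all within the range of the 17 arrays. Its lens markers summed to a Cy5 signal of 14500, against 2250 to 17500 on the 17 arrays.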
